A study of Rattus norvegicus with 24 samples.

Results

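*Cd36* and *Olr1* encode 2 scavenger receptors, and *Spic* encodes the transcription factor Spi-C. The 3 genes were described in rat skin explants together with the other macrophage receptor genes *Msr1*, *Marco*, *Cd163*, *Cd68* and *Scarb1*. Of these 8 genes, 7 were represented on the array, by 8 of its 8453 probes, and *Cd68* was not found by name or accession. *Cd36*, *Olr1* and *Spic* were chosen by their measured ratios between the paired explants, which were already known to be large, and *Msr1* stood in the same reported list. Their mean ratios are therefore given as a description without a test, whereas *Marco*, *Cd163* and *Scarb1* served as comparison receptors and were tested.

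In the skin explant assay, skin is cultured with lymphocytes and the graft-versus-host reaction of the tissue is read out. Each of the 12 skin donors was a male BN rat of 15 weeks. For the allogeneic sample, lymphocytes of PVG origin were stimulated against irradiated BN splenocytes in a mixed lymphocyte reaction for 7 days and then co-cultured with BN skin for 3 days. For the syngeneic sample, BN lymphocytes were kept with irradiated BN splenocytes for the same 7 days and then co-cultured with BN skin for 3 days. Both RNAs of a pair were labelled with Cy3 and Cy5 and hybridised together on 2 custom Agilent arrays with exchanged dyes, which gave 24 arrays on 3 slides, with 4 rats per slide. The replicate was the rat (n = 12). Whole explants were used, so fewer cells of a type and less RNA per cell cannot be told apart.

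Scavenger receptors bind and take up modified lipoproteins, dying cells and microbial surfaces. CD36 is a class B receptor that also carries long-chain fatty acids into fat cells and macrophages and is found on platelets and small vessels. The *Olr1* product, LOX-1, is a C-type lectin that binds oxidised low-density lipoprotein and lies in the natural killer gene complex. MSR1 and MARCO are class A receptors, CD163 takes up haemoglobin bound to haptoglobin, and SR-B1, the product of *Scarb1*, is the receptor for high-density lipoprotein. Spi-C belongs to the ETS family next to PU.1 and is known for its role in the iron-recycling macrophages of the spleen.

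The probes were 60 bases long and each of *Cd36*, *Olr1*, *Spic* and *Msr1* had a single probe, so that 1 hybridisation target carried each value. The *Cd36* probe had 2 spots per array and lay at chr4:13525240-13525299 on the rn3 build, to which the array header refers. The *Olr1* probe had 4 spots and lay on the same chromosome at chr4:166992203-166992262. The *Spic* probe had 1 spot at chr7:25374736-25374795, and the *Msr1* probe had 1 spot at chr16:56293661-56293720. A further probe named after *Olr1* in the array design matched an olfactory receptor gene by its accession and was left out. The longest run of bases that these 4 probes shared with any other probe of different sequence on the array was 12 bases for *Cd36*, 14 for *Olr1*, 12 for *Spic* and 14 for *Msr1*. The first 30 bases of each probe are shown to identify the measured target.
*Cd36* probe: tggcaacaacaaggccaggtatcacagata
*Olr1* probe: aatgaaataactaagcatatcttttgagaa
*Spic* probe: ctcagtgtccgtgaattgggtatccaagaa
*Msr1* probe: gaacgtgtgcacaaagtatcagcagaaatc

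Because the 3 genes were lower in the same samples, their promoters were compared, from 250 bases before to 50 bases after the gene start in RefSeq on GRCr8. Capitals mark exact matches, on either strand, of GAGGAA (the core of the box bound by PU.1 and related ETS factors), TGAGTCA (the AP-1 site) and AGGTCA (a half-site of nuclear receptors).
*Cd36* promoter, chr4:18246332-18246631, plus strand: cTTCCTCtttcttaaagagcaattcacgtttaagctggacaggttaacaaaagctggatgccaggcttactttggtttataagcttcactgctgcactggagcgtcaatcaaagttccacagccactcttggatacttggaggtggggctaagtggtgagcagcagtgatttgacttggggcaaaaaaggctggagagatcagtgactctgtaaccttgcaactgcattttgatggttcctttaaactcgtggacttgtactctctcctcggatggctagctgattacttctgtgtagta
*Olr1* promoter, chr4:164634498-164634797, minus strand: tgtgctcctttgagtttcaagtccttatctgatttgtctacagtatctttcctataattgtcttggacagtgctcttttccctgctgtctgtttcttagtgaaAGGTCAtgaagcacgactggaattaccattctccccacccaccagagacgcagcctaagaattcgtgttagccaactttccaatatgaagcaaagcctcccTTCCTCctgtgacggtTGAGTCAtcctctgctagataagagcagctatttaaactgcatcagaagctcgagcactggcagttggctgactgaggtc
*Spic* promoter, chr7:24964851-24965150, minus strand: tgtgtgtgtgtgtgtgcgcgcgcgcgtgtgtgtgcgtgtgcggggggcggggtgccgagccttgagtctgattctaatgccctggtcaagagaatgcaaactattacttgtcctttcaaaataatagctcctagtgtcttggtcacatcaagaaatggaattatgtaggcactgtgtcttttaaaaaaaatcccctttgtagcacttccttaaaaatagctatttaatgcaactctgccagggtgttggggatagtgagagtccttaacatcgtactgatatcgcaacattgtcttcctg
The *Olr1* window held all 3 motifs, with the PU box core 46 and the AP-1 site 30 bases before the start. The *Cd36* window held the PU box core alone, 249 bases before the start, and the *Spic* window held no match. Among 33469 rat promoters of the same length, 27.6% held GAGGAA, 4.63% TGAGTCA and 16.2% AGGTCA. The matches overlap no other motif searched and describe the letters in these windows only.

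Between 74.8% and 99.9% of the probe spots of an array were well above background in Cy5 and between 78.3% and 99.7% in Cy3, and 2 of the data sources stood apart. Rat 8 had a median correlation of 0.17 with the other rats over all probes, against 0.37 to 0.69 for the rest, although its own 2 arrays correlated at 0.94. Array 1 of rat 10, with the allogeneic label in Cy5, had a median Cy5 intensity of 25642 against 332 on the swapped array of the same rat, and these 2 arrays correlated at 0.13. Results are therefore given with and without them. The array held none of the 10 keratinocyte markers that were looked for. Instead, 5 epithelial genes were chosen after it was seen which genes it held, and the probes for *Cdsn*, *Jup*, *Dsc2* and *Dsc3* were well above background on 24 of 24 arrays, whereas that for *Dsg4* was so on 13.

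All ratios below are log2 of the sample labelled allogeneic over the sample labelled syngeneic, with the direction taken from the dye labels. This direction is opposite to that of the study: genes it called up-regulated, such as *Cd36*, *Olr1* and *Spic*, have negative values here. By qRT-PCR on part of these sample pairs, the study also found *Olr1* up-regulated in the allogeneic explants. It reported the same for *Olr1* in skin lesions of transplanted rats. The sign should be read with this in mind throughout, and "lower" means lower in the RNA labelled allogeneic. On this scale 1167 of 7199 genes passed the test (limma, Benjamini-Hochberg adjusted p below 0.05), of which 544 were lower, or 7.56% of all genes, and 623 higher, or 8.65%.

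*Cd36* was lower in 11 of 12 rats. The lowest, median and highest log2 intensities over the rats were 11.11, 13.19 and 14.24 in the RNA labelled syngeneic. They were 10.25, 11.58 and 13.32 in the RNA labelled allogeneic, and the ranges overlapped. The log2 ratio per rat ran from -2.10 in rat 1 over a median of -1.61 to 0.08 in rat 8. The mean was -1.41 ± 0.63 (SD, n = 12), a 2.65-fold lower level in the RNA labelled allogeneic. Rat 8 was the one rat without a decrease, and both of its arrays gave values near 0, at 0.14 and 0.03. Its intensity in the RNA labelled syngeneic was among the 2 lowest. Without rat 8 the mean was -1.54 ± 0.44 (SD, n = 11).

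*Spic* was lower in 12 of 12 rats. Its log2 intensity in the RNA labelled syngeneic was 7.45 at the lowest, 8.46 at the median and 9.79 at the highest. The corresponding values in the RNA labelled allogeneic were 7.13, 7.32 and 7.72, so that the spread between rats was 0.61 (SD) in the first and 0.19 in the second. In 11 rats the level labelled syngeneic was above every level labelled allogeneic. How many of all genes show this was not counted, so nothing is read from it. The ratio ran from -2.26 in rat 9 over a median of -1.02 to -0.14 in rat 8, with a mean of -1.15 ± 0.64 (SD, n = 12), or 2.22-fold lower. Rats 9 and 12 had the strongest decreases, at -2.26 and -2.04, and rat 8 again lay nearest to 0. Its mean without rat 8 was -1.24 ± 0.59 (SD, n = 11).

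*Olr1* was lower in 12 of 12 rats as well, but its signal was close to background. In the channel labelled syngeneic, at least 1 of its 4 spots exceeded background clearly on 22 of the 24 arrays, but in the channel labelled allogeneic this held for 2 of them. With at least 2 of the 4 spots required, the numbers were 18 and 1. The lowest, median and highest log2 intensities were 6.46, 7.04 and 7.35 in the RNA labelled syngeneic and 6.12, 6.25 and 6.45 in the RNA labelled allogeneic, and these ranges did not overlap. The share of all genes with such ranges was not counted, and *Olr1* was chosen for its ratio, so nothing is read from this. The ratio ran from -1.19 in rat 9 over a median of -0.71 to -0.22 in rat 10, with a mean of -0.67 ± 0.35 (SD, n = 12), or 1.60-fold lower. Where the level labelled allogeneic lay below the dimmest spot well above background on its array, it was also raised to that spot. The level labelled syngeneic was then 1.41-fold higher on average over the rats. This is not a strict lower bound. The size depended on how the background was handled: the mean was -1.16 with a normexp offset of 16, -2.23 in the authors' series table and -3.04 with the processed signals of the scanner software. Under these 3 settings *Cd36* stayed between -1.43 and -1.42, and *Spic* between -1.66 and -1.38. Without rat 8 the *Olr1* mean was -0.71 ± 0.33 (SD, n = 11).

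**Figure D1:**
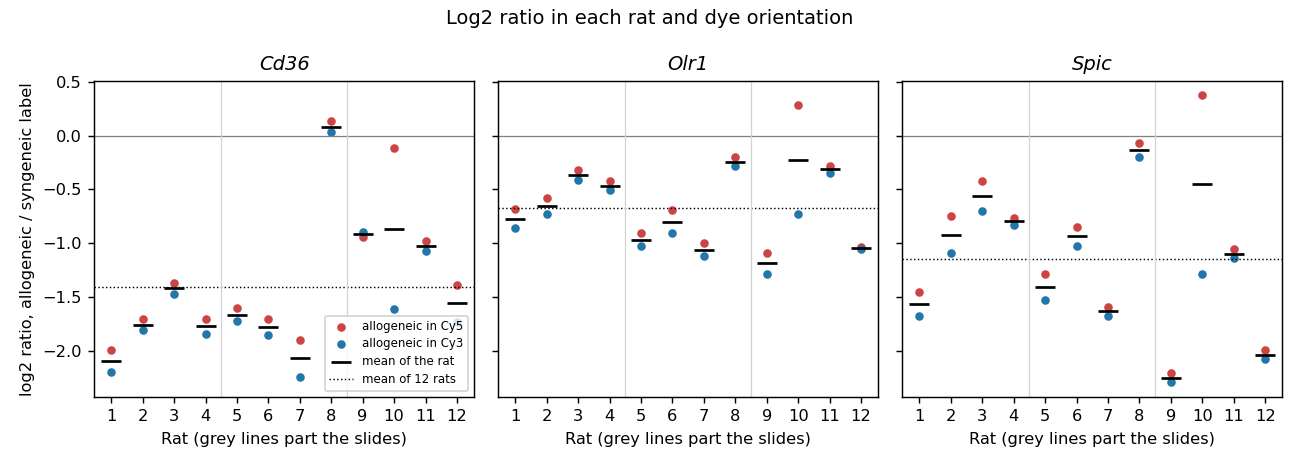
Log2 ratio (y axis, allogeneic over syngeneic label) of *Cd36*, *Olr1* and *Spic* in each of the 12 rats (x axis), with points for the arrays of each dye orientation, a bar for the mean of the rat and a dotted line for the mean of 12 rats. Rat 8 lay nearest to 0 for *Cd36* (0.08) and *Spic* (-0.14), and the 2 arrays of rat 10 lay farthest apart for all 3 genes.

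All 3 genes were thus lower in 11 or 12 of the 12 rats, a pattern shown by 6.93% of all genes, and a decrease in 12 of 12 rats was shown by 3.25%. The shares of genes higher in 11 or 12 and in 12 of 12 rats were 7.65% and 2.67%. As the genes were chosen for these ratios, nothing is read from these shares. Array 1 of rat 10 gave ratios of -0.12 for *Cd36*, 0.28 for *Olr1* and 0.37 for *Spic*, against -1.61, -0.73 and -1.28 on the swapped array. Without that array the means were -1.47 for *Cd36*, -0.72 for *Olr1* and -1.22 for *Spic*. Without it and without rat 8, they were -1.61, -0.76 and -1.32. By slide, *Cd36* had -1.76, -1.36 and -1.09 on slides 1, 2 and 3 (n = 4 each). *Spic* had -0.96, -1.03 and -1.46, and *Olr1* had -0.56, -0.77 and -0.69.

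The 2 dye orientations differed in size, though not in direction of the mean. The *Cd36* ratio was -1.27 ± 0.68 with the allogeneic label in Cy5 and -1.54 ± 0.63 with it in Cy3 (SD, n = 12), a difference of 0.26 that had the same sign in 11 of 12 rats (exact two-sided permutation of signs, adjusted p = 0.000977 over the 3 genes). For *Spic* the values were -1.01 and -1.29, and the difference of 0.29 had the same sign in 12 of 12 rats (exact permutation, adjusted p = 0.000732). For *Olr1* they were -0.58 and -0.77, and the difference of 0.19 again had one sign in 12 of 12 rats (exact permutation, adjusted p = 0.000732). Without rat 10, whose arrays differed most, the differences were still 0.15, 0.16 and 0.12 for *Cd36*, *Spic* and *Olr1*. Averaging the 2 orientations of a rat cancels such a dye effect. The share of all genes with such a difference was not counted, so it is not read as particular to the 3 genes. With median centring in place of loess, the *Olr1* difference had the opposite sign (-0.51), and those of *Cd36* and *Spic* were 0.97 and 0.38. With the processed signals the differences were 0.27 for *Cd36*, 0.35 for *Spic* and 0.89 for *Olr1*.

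*Msr1*, the class A receptor named for macrophages, was lower in 11 of 12 rats. The lowest, median and highest log2 intensities were 8.29, 10.19 and 10.95 in the RNA labelled syngeneic and 8.71, 8.99 and 9.71 in the RNA labelled allogeneic. The ratio ran from -2.24 in rat 9 over a median of -0.98 to 0.60 in rat 8, and the mean was -0.98 ± 0.70 (SD, n = 12), or 1.97-fold lower. Rat 8 was higher rather than lower on both arrays, at 0.37 and 0.83. Its mean without rat 8 was -1.12 ± 0.52 (SD, n = 11).

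None of the 3 comparison receptors passed the test over all 7199 genes, of which 16.2% passed in either direction and 2078 had an unadjusted p below 0.05. *Cd163* had a mean ratio of 0.18 ± 0.37 (SD, n = 12), higher in 9 of 12 rats (limma, adjusted p = 0.264, unadjusted 0.0977), with a 95% interval of the mean from -0.05 to 0.41. Its ratio depended on the dyes, with -0.09 in the arrays with the allogeneic label in Cy5 and 0.45 in the others, where it passed (limma, adjusted p = 0.00616). *Scarb1* had 0.12 ± 0.14 (SD, n = 12), higher in 10 of 12 rats (limma, adjusted p = 0.0698, unadjusted 0.0131), with an interval from 0.02 to 0.21. Here the arrays with the allogeneic label in Cy5 gave 0.34 (limma, adjusted p = 0.000646) and the others -0.11. Without rat 8 *Scarb1* passed at 0.14 (limma, adjusted p = 0.0120). The 2 *Marco* probes, found on the unplaced chromosome of rn3, had -0.03 and -0.02, and the gene mean was -0.02 ± 0.06 (SD, n = 12; limma, adjusted p = 0.502), with an interval from -0.06 to 0.02. The *Marco* probes were dim, with median log2 intensities between 6.77 and 6.93, although they were well above background on 20 to 24 of 24 arrays in each channel.

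**Figure D2:**
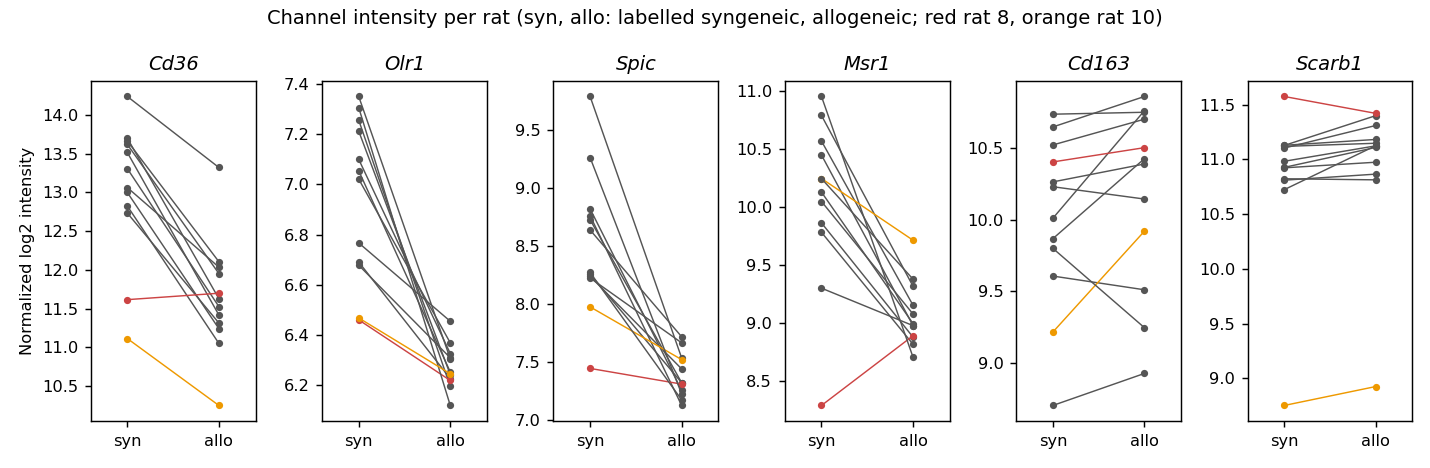
Normalized log2 intensity (y axis) of 6 genes in the RNA labelled syngeneic and allogeneic (x axis), with 1 line per rat, rat 8 in red and rat 10 in orange; each panel has its own scale. For *Olr1* all 12 values labelled syngeneic (6.46 to 7.35) lay above all 12 labelled allogeneic (6.12 to 6.45), whereas the values for *Cd163* and *Scarb1* overlapped. *Olr1* was chosen for its ratio, and the share of all genes with such ranges was not counted.

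The ratios of *Olr1* and *Spic* rose and fell together over the rats. Pearson's r was 0.90 and Spearman's rho 0.89 (n = 12; permutation test with 100000 resamples, adjusted p = 0.00039 and 0.00078 over 3 pairs). It was 0.85 without rats 10 and 9, the 2 rats farthest from the *Olr1* median (n = 10; permutation p = 0.00199). With the slide means taken away r was 0.97 (permutation, adjusted p = 3e-05), and within the slides it was 0.93, 0.99 and 0.97, with 4 rats each. The permutation moved the centred values across slides without allowing for the means taken away, so this p-value may be too small. Without rat 8 and array 1 of rat 10 the correlation also held, and all values from leaving out 1 rat lay between 0.87 and 0.94. The 2 values of a rat come from the same arrays. Other receptors shared this pattern: r with *Olr1* and *Spic* was 0.79 and 0.76 for *Msr1* and 0.60 and 0.64 for *Cd163* (not tested). For *Marco* and *Scarb1* the values lay between -0.13 and 0.13, but this depended on rat 8. Without rat 8, r with *Olr1* and *Spic* was 0.56 and 0.50 for *Marco* and 0.135 and 0.39 for *Scarb1*. It was then 0.78 and 0.66 for *Msr1* and 0.68 and 0.77 for *Cd163*.

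*Cd36* was not significantly correlated with either gene over the 12 rats. For *Cd36* and *Olr1* r was 0.50 and rho 0.46 (n = 12; permutation test, adjusted p = 0.139 and 0.201), and for *Cd36* and *Spic* r was 0.42 and rho 0.37 (n = 12; permutation test, adjusted p = 0.171 and 0.237). Without rats 8 and 10, the 2 farthest from the *Cd36* median, r was 0.12 and -0.18 (n = 10). With the slide means taken away r was 0.68 and 0.69 (permutation, adjusted p = 0.00855 for both). These p-values may be too small for the reason given above. Within slides 1, 2 and 3 r was 0.90, 0.97 and 0.44 with *Olr1* and 0.95, 0.93 and 0.48 with *Spic*. Slide 2 includes rat 8, and no slide-centred value was taken without that rat. Rat 9 departed most from the relation of *Cd36* with both genes: it had the lowest *Olr1* and *Spic* ratios but -0.92 for *Cd36*. Leaving it out gave r = 0.72 for *Cd36* and *Olr1* (permutation, adjusted p = 0.00954) and 0.68 for *Cd36* and *Spic* (permutation, adjusted p = 0.0171).

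**Figure D3:**
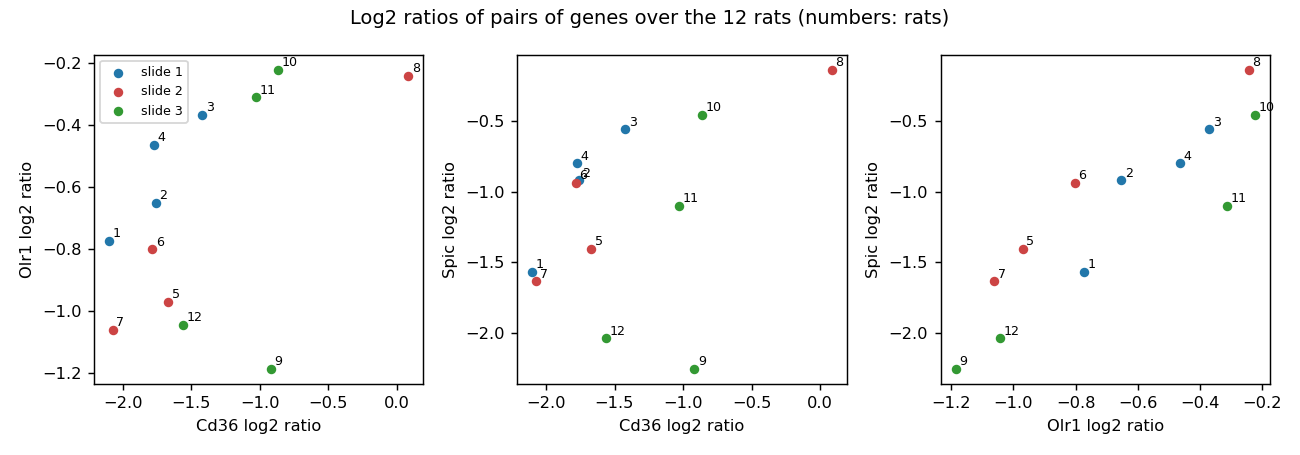
Log2 ratios (allogeneic over syngeneic label) of each pair of *Cd36*, *Olr1* and *Spic*, 1 point per rat with its number and a colour per slide. *Olr1* and *Spic* fall along a line (r = 0.90), whereas rat 8 for its high *Cd36* ratio (0.08) and rat 9 for its low *Olr1* and *Spic* ratios stand apart in the other panels.

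The genes whose ratios were most like each of the 3 over the 12 rats were listed as a description. For *Spic* these were *Dab2* (r = 0.92), an endocytic adaptor, *Gmfg* (0.92), an actin regulator of leukocytes, *Ccr1* (0.89), a chemokine receptor, *Mrc1* (0.89), the macrophage mannose receptor, and 1 transcript without a symbol. *Ccr1* (r = 0.91) was also among the 5 most like *Olr1*, and the other 4 had no symbol. The mean ratios of *Dab2*, *Ccr1* and *Mrc1* were -0.24, -0.35 and -0.46. For *Cd36* the list was *Pkn2* (r = 0.89), *Ifit1* (0.88), *Cpe* (0.87) and the olfactory receptor genes *Or12e9* and *Or1e20b* (0.87 each). The median correlation of all genes with *Cd36* was 0.08, and the 90th percentile was 0.71, against 0.49 for *Olr1* and 0.54 for *Spic*. The values for *Cd36* without rat 8 were between 0.67 and 0.82.

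Among 28 other scavenger and uptake receptors, 22 were measured, of which 4 were lower and 5 higher (limma; 40.9% called, against 16.2% of all genes), with a median of 0.02 against 0.01 for all genes. The lower ones were *Cd5* (-0.97 ± 0.84, SD, n = 12; adjusted p = 0.0115) and *Cd6* (-0.63), scavenger-domain receptors of T cells, *Mertk* (-0.43), a receptor for dying cells, and *Scarb2* (-0.19), a lysosomal relative of CD36. The higher ones included *Tyro3* (0.28), a relative of *Mertk*, *Lrp1* (0.25), *Scarf2* (0.23) and *Mrc2* (0.20). *Tyro3* lost its call with median centring, and *Lrp1* and *Scarf2* in the arrays with the allogeneic label in Cy5 alone. *Mrc1*, at -0.46 ± 0.65, did not pass (adjusted p = 0.102). With rat 8 left out the counts were 5 lower and 8 higher. *Scarb2* lost its call without rat 5 or rat 9.

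Of 18 ligands, co-receptors and signalling partners of CD36, 15 were measured, and 6 were lower and 1 higher (limma; 46.7% called, against 16.2% of all genes). *Itgb2*, the beta-2 integrin of leukocytes, had -1.11 ± 0.54 (SD, n = 12; adjusted p = 0.000381). *Tlr2*, a Toll-like receptor for which CD36 acts as co-receptor, had -0.94 ± 0.40 (adjusted p = 0.000168). *Vav1* (-0.85) and *Syk* (-0.46), which act in signalling below immune receptors, were lower in 12 of 12 rats, as were *Itgb2* and *Tlr2*. *Vav2*, the broadly expressed relative of *Vav1*, was higher by 0.10 and lost its call in the arrays with the allogeneic label in Cy3 alone. *Tlr4* had -0.07 and *Src* -0.02, and neither passed.

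Lipid handling genes of macrophages were sparsely represented, with 9 of 29. Of these, 3 were lower and 1 higher (limma, 44.4% called, against 16.2% of all genes). *Nr1h3*, the oxysterol receptor LXR alpha, had -0.55 ± 0.38 (SD, n = 12; adjusted p = 0.00314), *Fabp4*, a fatty acid carrier, -0.37, and *Pparg*, a nuclear receptor known to activate *Cd36*, -0.35. *Apoe*, the apolipoprotein secreted by macrophages, was higher, at 0.50 ± 0.44 (adjusted p = 0.0125), and lost its call with median centring. The other 5 did not pass. The median of the list was -0.04.

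Of 21 ETS factors and partners 18 were measured. *Spi1* and *Cebpb* alone were lower, with none higher (limma, 11.1% called, against 16.2% of all genes). *Spi1*, which encodes PU.1, had -0.67 ± 0.35 (SD, n = 12; adjusted p = 0.000596) and was lower in 12 of 12 rats, as was *Cebpb* at -0.26. *Spib*, the third gene of the PU.1 group, had -0.27 ± 1.00 and did not pass (adjusted p = 0.557). Without rat 8 there were 5 lower genes. Of 15 heme and iron genes 6 were measured, and 2 were lower and 1 higher (limma, 50% called, against 16.2% of all genes). *Hmox1*, the inducible heme oxygenase, had -0.74 ± 0.37 (adjusted p = 0.000448) and was lower in 12 of 12 rats, but lost its call in the arrays with the allogeneic label in Cy5 alone. *Vcam1*, a known target of Spi-C in splenic macrophages, was higher at 0.72 ± 0.67 (adjusted p = 0.0163), and lost its call in the arrays with that label in Cy3 alone. *Hmox2* (-0.09) passed narrowly (adjusted p = 0.0365), lost its call under 13 of 28 settings, 8 of which left out a single rat (1, 2, 3, 5, 9, 10, 11 or 12), and had the opposite sign in the arrays with the allogeneic label in Cy5. With rat 8 left out the heme and iron list had 4 lower genes and 1 higher gene.

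Of 10 genes near *Olr1* in the natural killer complex, most of them C-type lectin genes, 6 were measured. Among these, 2 were lower (limma, 33.3% called, against 16.2% of all genes). *Clec1b*, a platelet and myeloid lectin, had -0.38 ± 0.29 (SD, n = 12; adjusted p = 0.00504) and *Cd69*, an early activation marker of lymphocytes, -0.29 ± 0.31 (adjusted p = 0.0345). *Cd69* lost its call when 1 of rats 2, 4, 5, 9, 10, 11 or 12 was left out, and with rat 8 left out 3 genes were lower. *Gabarapl1* (-0.06), *Klrd1* (-0.09), *Klrk1* (-0.01) and *Klre1* (0.04) did not pass.

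Macrophages are known to express these receptors. Of 17 macrophage markers 14 were measured, and 8 were lower and 2 higher (limma, 71.4% called, against 16.2% of all genes). *Fcgr3a* had -2.19 ± 0.40 (SD, n = 12; adjusted p = 4.08e-07), *Trem2* -1.69, *Ctss* -1.40 and *Aif1* -1.27. The study had already reported these genes as changed in the same data. Their passing was therefore known beforehand. The share of markers called includes them, so it carries no independent weight as a whole. The complement genes *C1qa* (0.21) and *C1qc* (0.19) were higher. *C1qa* lost its call without rat 1, 2 or 7, and *C1qc* lost it under 16 of 28 settings, among them the omission of rat 1, 2, 4, 5, 6, 7, 9, 10 or 11. The other lower markers were *Tyrobp* (-0.71), *Itgam* (-0.60), *Fcgr1a* (-0.52) and *Csf1r* (-0.22). Their adjusted p values (limma) were 0.000234, 0.00258, 0.00522 and 0.0119. *Mrc1* (-0.46), *Adgre1* (-0.07), *Cd14* (0.01) and *C1qb* (0.09) did not pass. The summed intensity of the 14 markers ranged from 27159 to 71435 in the RNA labelled syngeneic and from 25048 to 46796 in the RNA labelled allogeneic, and it was lower in the second in each of 12 rats. All 14 were well above background in at least 1 channel on 24 of 24 arrays. Rat 8, whose *Cd36* and *Msr1* ratios were not lowered, had a mean ratio of -0.81 over these markers, against a median of -0.56 over the rats. The ratios of all probes spread more widely in rat 8, with an SD of 0.73 and 0.72 on its arrays. The other rats had 0.24 to 0.41, so the size of its marker mean is not directly comparable. The part of macrophage number in the ratios of *Cd36*, *Olr1* and *Spic* was not tested.

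The other cell type lists were smaller. Of 10 T cell markers 5 were lower (50% called, against 16.2% of all genes, 7.56% of them lower), among them *Lck* (-0.70), *Cd8b* (-0.49) and *Cd8a* (-0.32). *Cd3g* (-0.40), *Cd3d* (-0.16), *Cd3e* (-0.11), *Cd247* (-0.07) and *Cd4* (-0.05) did not pass. The summed intensity of the 10 markers ranged from 3113 to 6892 and from 2574 to 4767 in the RNAs labelled syngeneic and allogeneic. Of 6 NK cell markers 3, also 50%, were lower (*Gzmb* -0.69, *Nkg7* -0.31 and *Klrb1a* -0.12; the last lost its call without rat 2 or 11, and with Cy5 alone). *Klrd1* (-0.09), *Prf1* (-0.08) and *Ncr1* (-0.01) did not pass. Among adipocyte markers, *Fabp4* and *Pparg* (both above) were lower but *Adipoq*, encoding the fat cell hormone adiponectin, was higher, at 0.56 ± 0.36 (SD, n = 12; limma, adjusted p = 0.00188), and *Lep* and *Cidec* had 0.00 each. Among platelet markers *Pf4* had -0.91 (adjusted p = 0.00390) and *Ppbp* 0.40, which lost its call when 1 of rats 1 to 6, 9 or 10 was left out. The endothelial markers *Cdh5* (0.33) and *Pecam1* (0.17) and the fibroblast marker *Col1a2* (0.55) were higher. *Cdh5* and *Pecam1* lost their calls in the arrays with the allogeneic label in Cy3 alone, as did *Flt3*, *Cxcr2* and *Ppbp*, and *Pecam1* also with median centring and with the rat as a block. Of 4 dendritic cell markers *Cd83* was lower (-0.64) and *Flt3* higher (0.07), of 4 neutrophil markers *Cxcr2* was higher (0.15), and none of 5 B cell markers and neither muscle marker passed. The share called was 50% for the adipocyte, fibroblast and dendritic cell lists and 33.3% for the endothelial list. It was 25% for the neutrophil and 100% for the platelet list, against 16.2% of all genes. Leaving out rat 8 brought both measured fibroblast markers past the test, and leaving out rat 1 gave 2 lower dendritic cell markers.

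**Figure D4:**
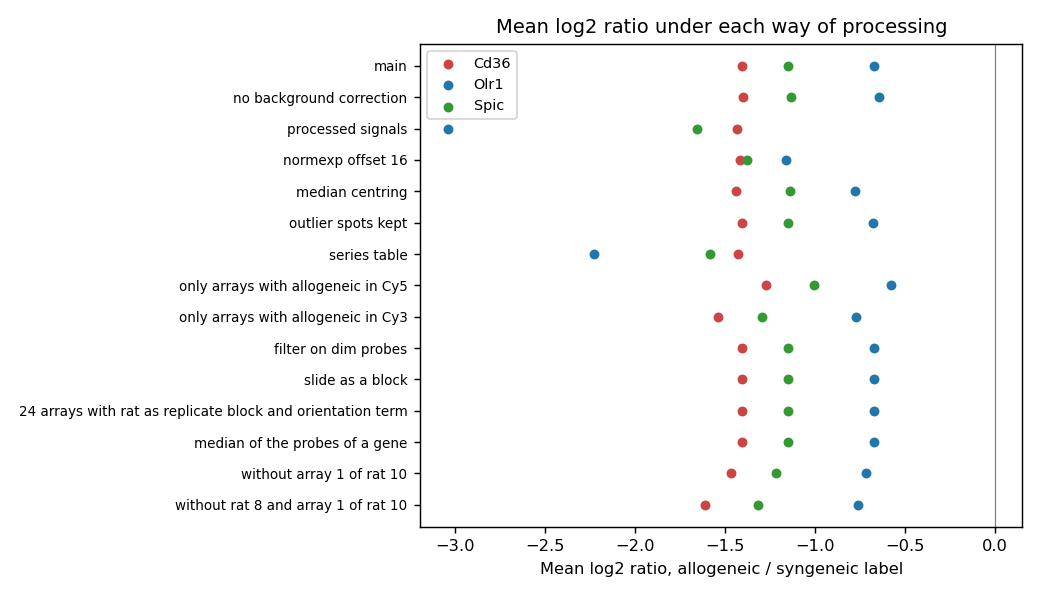
Mean log2 ratio (x axis, allogeneic over syngeneic label, n = 12 rats unless rats were left out) of *Cd36*, *Olr1* and *Spic* under the main and each other way of processing (y axis). All values are below 0, and the *Olr1* mean ranges from -0.58 to -3.04 whereas *Cd36* stays between -1.27 and -1.61.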

How the data were processed

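The 24 two-colour arrays compared, for each of 12 rats, RNA from skin explants labelled allogeneic and syngeneic in both dye orientations. The authors deposited scanner files with mean and background intensity values per spot and a series table of log2 ratios, normalised by loess according to the methods. Per the file headers, the intensities came from Feature Extraction 9.5.1.1. The table was already turned to one direction. Here, intensities were corrected by normexp (offset 50) and loess within arrays with limma 3.58.1 in R 4.3.3, outlier spots were dropped, swapped arrays turned, and spots, probes of a gene and the 2 arrays of a rat averaged. limma's moderated test with Benjamini-Hochberg adjustment (threshold 0.05) covered all 8453 probes or 7199 genes. Channel levels were taken after Aquantile normalization. The number of arrays limits the precision. The methods call the 12 assays of each kind independent.

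Probes were named by accession, gene ID, symbol or synonym from RefSeq (GRCr8), then by the study's probe list. All probes of the 8 genes are reported, the 5 genes most correlated with each of *Cd36*, *Olr1* and *Spic*, and per list up to 4 called genes in each direction with the largest change, or 2 where none was called. Other list genes mentioned were chosen after their values were seen. The members and lists were chosen with earlier results of these data known. The fit was tested on simulated data: of 200 changed probes among 8453, it called 78% of those changed by 0.25, 88% by 0.5 and 100% by 1 (log2), with 6 false calls. No other columns of per-sample values were used. Alternatives were the background correction, normalization, dye orientation, filter, outlier spots, slide, replicate block, test, series table, probe summary and omission of each rat.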

Additional observations from a re-analysis of the deposited data

Results flagged for a closer look

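The ratios of *Cd36*, *Olr1* and *Spic* drew attention because the 2 dye orientations gave different sizes, each by a test of the difference itself. With the allogeneic label in Cy5 the ratio was higher than with it in Cy3 by 0.26 for *Cd36*, by 0.19 for *Olr1* and by 0.29 for *Spic* (log2, n = 12 rats; exact permutation of signs, adjusted p = 0.000977, 0.000732 and 0.000732). These values were weighed no further.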

How the results depend on the processing

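In every alternative tried the mean ratios of *Cd36*, *Olr1* and *Spic* kept their sign, and leaving out 1 rat at a time gave -1.54 to -1.34 for *Cd36*, -0.72 to -0.63 for *Olr1* and -1.24 to -1.05 for *Spic*. The *Olr1* mean moved by more than 1 SD between rats to -3.04 with the processed signals, -2.23 with the series table and -1.16 with a normexp offset of 16. With the arrays of the allogeneic label in Cy5 alone, 2659 probes and 2177 genes were called in place of 1459 and 1167. With Cy3 alone they were 2500 and 2063. Without rat 8 and array 1 of rat 10 (chosen after seeing the data) they were 2231 and 1849, and the omission of 1 rat gave 1155 to 2087 probes, 922 to 1736 genes and 47 to 65 list genes in place of 53. Of the comparison receptors, 1 was called in place of 0 with Cy5 alone (*Scarb1*, 0.34), with Cy3 alone (*Cd163*, 0.45) and without rat 8 and array 1 of rat 10 (*Scarb1*, 0.13, limma adjusted p = 0.0245), and 0 to 1 when 1 rat was left out. *Cd163* changed sign with Cy5 alone (-0.092), *Scarb1* with Cy3 alone (-0.11), and *Marco* with the processed signals (0.0073) and within slide 1 (0.00076). The causes were not tested.

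The correlation of *Cd36* and *Olr1* passed with the processed signals (0.62), the series table (0.67), Cy5 alone (0.62) and slide as a block (0.68), and that of *Cd36* and *Spic* with slide as a block (0.69). With slide as a block the permutation ran across slides, so its p-values may be too small. The correlation of *Cd36* and *Spic* was -0.18 without rat 8 and array 1 of rat 10. Omission of 1 rat gave 0.34 to 0.72, 0.092 to 0.68 and, for *Olr1* and *Spic*, 0.87 to 0.94. The dye difference of *Olr1* was -0.51 with median centring and 0.89 with the processed signals. That of *Cd36* was 0.97 with median centring. Omission of 1 rat gave dye differences of 0.15 to 0.29 for *Cd36*, 0.12 to 0.21 for *Olr1* and 0.16 to 0.31 for *Spic*. The 2 arrays of a rat hold the same RNA pair, so they were averaged. With all 24 arrays, the rat as replicate block and an orientation term, 1729 probes, 1400 genes and 60 list genes were called, 0 comparison receptors passed, and the mean ratios were unchanged at -1.41, -0.67 and -1.15.

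Signal over background limits the *Olr1* ratio, since its probe was rarely above background in the channel labelled allogeneic. One probe per gene, whole tissue and 12 rats limit what the other ratios can show. Neither probe specificity beyond the shared runs given, nor the cell type that held each transcript, was measured.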
